A study of Mus musculus with 42 samples.

Results

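Glutathione transferases, sulfotransferases and the Ugt2 and Ugt3 glycosyltransferases were measured in the livers of 3 RiboTag mice, in whole-tissue RNA and in RNA pulled down with HA-tagged ribosomes. The members were the protein-coding mouse genes whose symbols begin with Gst followed by a class letter (a, k, m, o, p, t or z) and a number, with Mgst or Sult and a number, or with Ugt2 or Ugt3. The rule gave 58 of the 47729 genes in the files: 22 cytosolic glutathione transferases (the alpha, kappa, mu, omega, pi, theta and zeta classes, the kappa enzyme being mitochondrial), 3 membrane-bound MAPEG members (Mgst), 21 sulfotransferases and 12 UDP-glycosyltransferases. A further 7 genes with matching symbols were not protein-coding and were left out.

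All mice carried Gfi1Cre/+ and Rpl22HA/HA, so every library, input included, came from animals with the Cre and the tag. Cre from the Gfi1 locus tags the ribosomal protein Rpl22 in cells that express Gfi1 and in the descendants of cells that once did, which in liver is a subset of the cells. The labels give the age as 30 days in the growth description and as day 1 in the stage field. The study's methods give 30 days for the mice whose livers were used for RNA, and P1 for the reporter mice used for immunostaining. Input was the liver homogenate, and IP was the RNA recovered from it with an anti-HA antibody. Each of the 6 RNA samples was made into libraries by 7 protocols, giving 42 libraries in 14 groups of 3: Tru70 (TruSeq, 70 ng of RNA), Tru4 (TruSeq, 4 ng), NEB (NEBNext Ultra Directional, 4 ng), NuG (NuGEN Ovation, 4 ng), SMTer (SMARTer Stranded, 4 ng), SMTseq4 (SMART-Seq v4, 4 ng) and SMTseq0.25 (SMART-Seq v4, 0.25 ng). The SMART-Seq v4 libraries were sequenced at another centre and on another instrument than the rest, so kit and centre cannot be told apart. Replicate numbers were taken to name the mice, and the protocols re-measured the same RNA, so agreement between protocols is not agreement between further animals.

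These enzymes carry out conjugation, the step in which the liver attaches a water-soluble group to a drug, hormone, bile acid or reactive metabolite so that it can be excreted. Glutathione transferases couple the thiol of glutathione to electrophiles, sulfotransferases move sulfate from the donor PAPS to hydroxyl and amino groups, and the Ugt2 enzymes attach glucuronic acid from UDP-glucuronate. The hepatocyte is the cell best known for them, and Mgst2 is also known for making the inflammatory mediator leukotriene C4.

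Replicate 3 of NEB, NuG, SMTer and Tru4 went against its labels. The number of detected genes that the study lists for each library equalled the number in the files for 34 of 42 libraries as labelled, and for 42 of 42 once input and IP were exchanged in those 4 pairs (8 libraries). The read totals that the study lists matched the same fractions. They had replicates 1 and 3 in reverse order in Tru70, Tru4, NEB, NuG and SMTer, and the replicate numbers of the labels were kept. The exchanged fractions were used below. As labelled, no gene in these 4 protocols passed the test in either direction, so that the count of members was also 0 (edgeR, limma in SMTer). At an unadjusted p under 0.05 there was 1 member in Tru4, against 37 of 15868 genes, and 0 in the other 3. Total exon counts ran from 3223153 to 45466334 in the 6 protocols other than SMTer and from 464199 to 762562 in SMTer, where 76.8% to 93.8% of uniquely placed read pairs fell on no counted exon, against 3.18% to 27.6% in the others. A count of 0 allowed up to 3 counts, which was at most 0.931 CPM (counts scaled to a common library total) in the libraries of those 6 protocols. Markers of hepatocytes fell in IP: all 9 were lower in Tru70, and their summed level was 166912 to 186621 CPM in input and 23891 to 27136 CPM in IP. All 8 Kupffer cell markers rose (444 to 493 CPM in input, 14766 to 18554 CPM in IP), as did 6 of 7 erythroid markers (1853 to 2861 CPM in input, 102573 to 219778 CPM in IP) and 8 of 8 T and B lymphocyte markers, while 5 of 8 endothelial markers fell and 1 rose (319 to 338 CPM in input, 318 to 444 CPM in IP). Gfi1 itself had 0 to 49 counts per library and was tested in SMTseq4 and Tru4 only. It was called higher in IP in SMTseq4 (log2 change 3.38), and not in Tru4 (edgeR, 2.88, adjusted p = 0.089). In Tru70 it had 0 counts in every input library and 27, 16 and 0 in IP. The study reports enrichment of Gfi1 in IP by real-time RT-PCR. Rpl22 was called in no protocol.

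Most members were lower in IP than in input. In Tru70, 33 of 43 members tested were lower and 0 were higher (edgeR quasi-likelihood test, adjusted p under 0.05), against 16.7% of all genes tested called lower and 18.1% called higher. The median change of the members on the log2(IP/input) scale was -2.16, and that of all genes tested was -0.03. The 9 hepatocyte markers had a median of -2.15 in the same libraries. Input and IP came from the same livers, and IP holds RNA on tagged ribosomes from a subset of the cells. A transcript of cells with few tagged ribosomes and a transcript less bound to ribosomes cannot be told apart here. The part of cell makeup in the members' decrease was not tested.

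The same direction was found in the other 5 protocols tested on counts. Tru4 had 39 of 44 members lower and 1 higher (all genes 24.2% and 25.9%), with a member median of -2.08. SMTseq4 had 39 of 44 lower and 2 higher (28.7% and 30.4%, median -2.48), and SMTseq0.25, from 0.25 ng of RNA, had 35 of 42 lower and 1 higher (17.1% and 19.8%, median -2.34). NuG had 35 of 36 lower and 0 higher (20.9% and 24% of all genes, median -2.19). With library totals as the only scaling, NuG gave 17 lower and 1 higher (332 and 9041 of 12406 genes), the median of all its genes then standing at 1.60 instead of 0.02. NEB had fewer calls among members and among all genes, with 18 of 37 lower and 0 higher (5.34% and 5.82%), although its member median of -2.24 was like the others. Its count was 13, 8 and 5 without mouse 1, 2 and 3, against 346 of 12639, 217 of 12619 and 216 of 12122 genes lower. Without mouse 3, whose fractions were exchanged, Tru4 had 36 lower and 1 higher and NuG 34 lower and 0 higher. Of all genes, 2740 of 15748 were then lower and 3059 higher in Tru4, and 2039 of 12874 lower and 2559 higher in NuG. The medians of all genes tested in these protocols lay between -0.05 and 0.06, and with library totals alone between 0.41 (Tru70) and 1.60 (NuG).

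**Figure D1:**
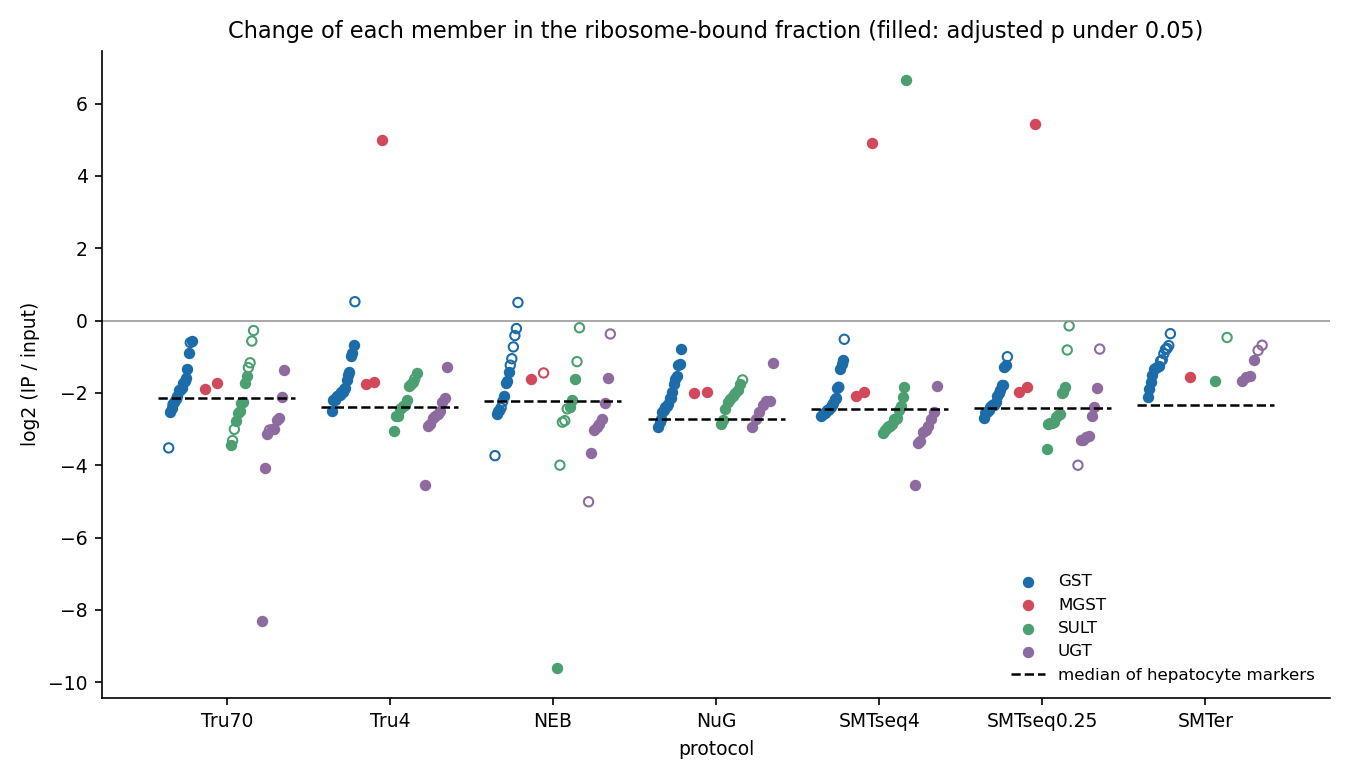
Change of each tested member between IP and input, by protocol and family; the vertical axis is log2(IP/input) (for SMTer on the log2(RPKM + 1) scale), filled points passed adjusted p under 0.05, open points did not, and dashed lines mark the median of the hepatocyte markers. Nearly all points lie below 0 in every protocol, with Mgst2 (red, above 4) and Sult2b1 (green, above 6) apart.

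Of the 35 members tested in all 6 protocols with usable counts, 17 were lower in each of the 6, whereas 600 of 11025 genes (5.44%) were. The 17 comprised 6 of 16 glutathione transferases, 1 of 2 Mgst genes, 3 of 10 sulfotransferases and all 7 UDP-glycosyltransferases. The families differed in their median change in Tru70, from -1.80 for the Mgst genes and -1.91 for the cytosolic glutathione transferases to -2.26 for sulfotransferases and -3.0 for the UDP-glycosyltransferases. The last family also had the lowest median of the 4 in SMTseq4 (-3.03), SMTseq0.25 (-3.18), NEB (-2.87), Tru4 (-2.61) and NuG (-2.33), but not in SMTer, where on the log2(RPKM + 1) scale it was -1.31 against -1.57 for the Mgst genes. These medians describe the families, and the difference between families was not tested. Within single mice of the 6 protocols, IP over input gave member medians between -2.44 and -1.54, and the members lower in IP ran as a share from 38 of 42 (SMTseq0.25, mouse 2) to 43 of 43 (Tru70, mouse 1).

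The levels of members were compared per kilobase of exon, from the read pairs on each gene's span in Tru70 input (gene-span CPM, meaning read pairs scaled as CPM, per exon kilobase, mean ± SD, n = 3). Gstm1 was the most abundant at 1066 ± 195, followed by Mgst1 at 770.4 ± 32.7, and every Gstm1 library lay above every Mgst1 library. Gstp2 (287 ± 24.9), Gstp1 (279 ± 54.2), Gsta3 (264 ± 18.2) and Gstt1 (254 ± 11.6) came next, and neighbours among these 4 overlapped. Sult1a1 (209 ± 9.69) and Gstm3 (205 ± 26.1) overlapped in turn. Sult2a1 had a similar mean with a wide spread (162 ± 88.1), and Ugt2b5 (161 ± 32) and Ugt2b36 (138 ± 11.8) were the highest of the UDP-glycosyltransferases. Reads in introns count toward these values, and reads shared by near-identical genes may be counted in each of them.

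Gstm1 (GRCm38, ENSMUSG00000058135, chr3:108012255-108017973, minus strand) encodes a mu-class transferase, a class that conjugates epoxides and aromatic electrophiles. In Tru70 input its normalised counts were 1996, 2657 and 2840.1 CPM in mice 1, 2 and 3, and in IP they were 859, 679 and 725 CPM. All IP libraries lay below all input libraries, and the log2 change was -1.73 ± 0.21 (SE, adjusted p = 0.00026). The decrease in Gstm1 was called in all 7 protocols, from -1.67 in NEB to -2.53 in NuG.

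Gstm3 (ENSMUSG00000004038, chr3:107963696-107969283, minus strand), another mu-class gene, had the fitted value closest to 0 of the members with exon counts among the 10 with the highest RPKM in Tru70. It had 382, 462 and 410.2 CPM in input and 291, 281 and 273 CPM in IP. The groups did not overlap, yet the log2 change was only -0.57 ± 0.17 (SE, adjusted p = 0.028). Gstm3 was lower in SMTseq4 (-1.33), SMTseq0.25 (-1.22), Tru4 (-0.68) and NuG (-1.19), the last of which became 0.39 and was not called with library totals alone. In NEB (-0.42) and SMTer (-0.91) it did not pass the test, though in SMTer it did with the mouse as a block (limma, -0.91, adjusted p = 0.0071).

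Gstm4 (ENSMUSG00000027890, chr3:108040408-108044894, minus strand) stood between them. Its levels were 199, 226 and 201 CPM in input and 88.4, 54.2 and 67.1 CPM in IP, without overlap, and its log2 change was -1.58 ± 0.22 (SE, adjusted p = 0.00057). Gstm4 was called lower in every protocol but NEB (-1.06), and in NuG its change went from -1.23 to 0.34 (not called) with library totals alone. The remaining mu genes, given here after their values were seen, were Gstm2, Gstm6 and Gstm7, each with a Tru70 decrease (-2.16, -1.92 and -2.42), and Gstm5, which had a value of -0.61 there and passed in 3 of 6 protocols.

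Gsta3 (ENSMUSG00000025934, chr1:21240589-21265661, plus strand) is an alpha-class enzyme, known in the mouse for conjugating the aflatoxin epoxide. It went from 1822, 1903 and 1709.7 CPM in input to 382, 295 and 274 CPM in IP. This was the lowest fitted value of the 10 members with the highest RPKM in Tru70, a log2 change of -2.52 ± 0.20 (SE, adjusted p = 2.9e-05). Gsta3 was lower in each of the 6 count protocols within a narrow range, -2.59 to -2.47, and had -1.09 in SMTer, where it did not pass but did with the mouse as a block (limma, adjusted p = 0.0014).

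Gstt1 (ENSMUSG00000001663, chr10:75783813-75798584, minus strand), of the theta class that acts on small halogenated compounds, had 619, 589.5 and 654 CPM in input and 179, 90.1 and 166 CPM in IP. Mouse 2 was the lowest of the IP libraries, and the change was -2.10 ± 0.27 (SE, adjusted p = 0.00035). Gstz1 (ENSMUSG00000021033, chr12:87147165-87164723, plus strand), the zeta enzyme that isomerises maleylacetoacetate in tyrosine breakdown, had 879.7, 856 and 863 CPM in input and 301, 197 and 218 CPM in IP. Its input libraries were nearly equal, and its change was -1.86 ± 0.21 (SE, adjusted p = 0.00017). Both were called lower in all 6 count protocols, and in SMTer with the mouse as a block but not without it (limma, -0.80 with adjusted p = 0.010 against 0.12 for Gstt1, -1.12 with 0.0011 against 0.13 for Gstz1). The mitochondrial Gstk1 and the omega-class Gsto1, a dehydroascorbate reductase, were chosen after their values were seen. Gstk1 fell in 5 of the 6 count protocols and Gsto1 in 5 of 6, the latter by less (-1.91 against -0.89 in Tru70).

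**Figure D2:**
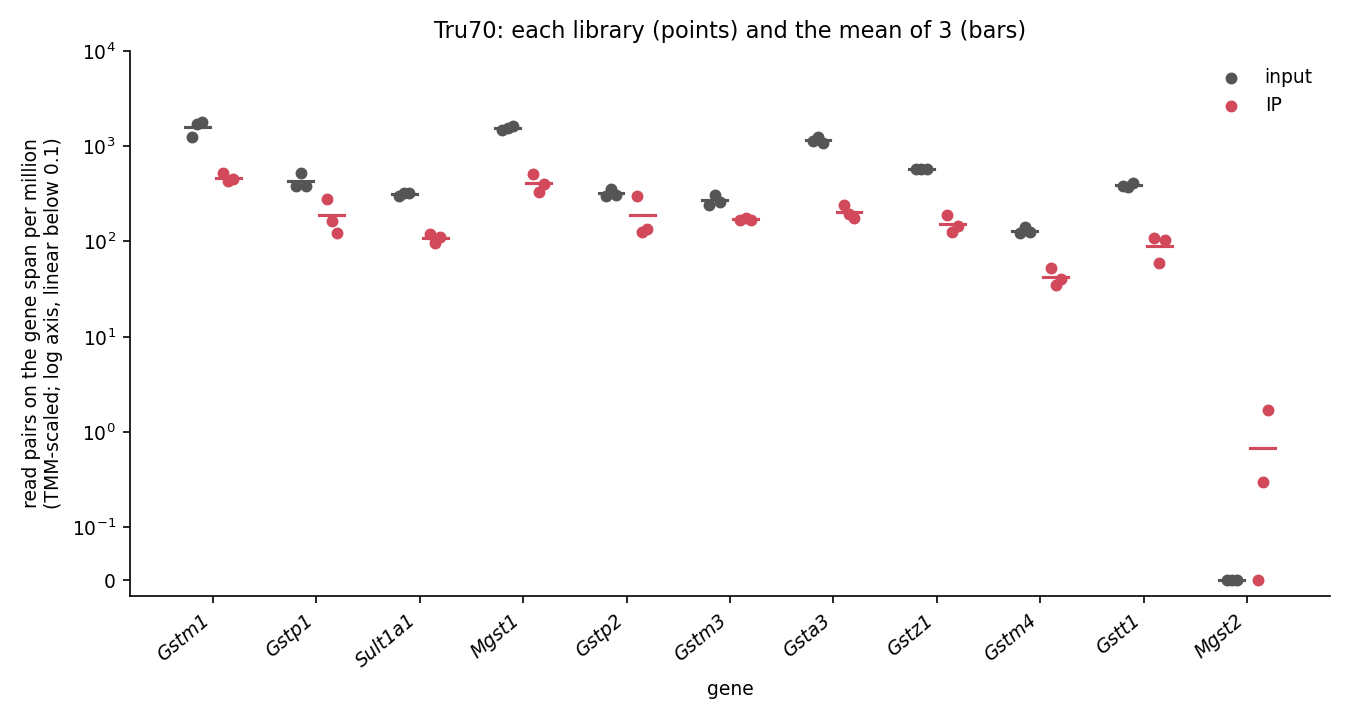
Gene-span CPM (TMM-scaled read pairs on the gene span) in each Tru70 library for the 10 members with the highest RPKM in Tru70 and Mgst2; points are libraries, bars are means of 3, the axis is logarithmic above 0.1 and linear below. Input (grey) lies above IP (red) without overlap for each of the 10, although the highest Gstp2 library in IP all but reaches the lowest in input, and Mgst2 is at 0 in all 3 input libraries.

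The pi class could not be read from the exon counts. Gstp1, Gstp2 and Gstp3 lie side by side on chromosome 19, and each had 0 exon counts in every Tru70 input library while a mean of 36419, 26801 and 2524 reads lay on their gene spans. One coding exon of 108 bases is shown for the 3 genes, from GENCODE M21 transcripts on GRCm38 in transcript direction, because Gstp1 and Gstp2 cannot be told apart in it. Capitals mark the bases that differ from Gstp1.
Gstp1 (chr19:4035824-4035931, minus strand): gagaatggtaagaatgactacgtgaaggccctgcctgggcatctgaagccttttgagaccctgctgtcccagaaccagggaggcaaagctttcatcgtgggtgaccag
Gstp2 (chr19:4040708-4040815, minus strand): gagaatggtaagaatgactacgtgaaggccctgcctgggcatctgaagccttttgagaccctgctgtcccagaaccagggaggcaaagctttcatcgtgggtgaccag
Gstp3 (chr19:4057888-4057995, minus strand): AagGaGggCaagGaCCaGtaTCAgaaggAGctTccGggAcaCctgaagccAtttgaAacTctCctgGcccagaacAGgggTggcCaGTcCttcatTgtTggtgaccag
Gstp1 and Gstp2 were identical over this exon, and Gstp3 differed from Gstp1 at 31 positions (71.3% identity). Over whole transcripts, 31.9% of the 60-base windows of Gstp1 and 52.4% of those of Gstp2 also occurred in another gene, 60 bases being the length to which reads were trimmed. Gstp3 shared 0% of its windows and overlapped no exon of another gene in GENCODE M21, and its counts were 0 as well. The authors counted over an Ensembl annotation, so an overlapping exon present only there would not be seen. The cause of the zero counts was not tested.

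Read pairs on the gene span, recovered from the deposited RPKM, gave values for the pi genes. Gstp1 (ENSMUSG00000060803, chr19:4035407-4037985, minus strand), an enzyme that in mouse liver is known for higher levels in males, had 381, 529 and 385 gene-span CPM in Tru70 input and 275, 162 and 124 in IP, with a log2 change of -1.20 ± 0.31 (SE, adjusted p = 0.017) by edgeR on gene-span reads. Gstp1 was lower in all 7 protocols on this measure. Gstp2 (ENSMUSG00000038155, chr19:4040285-4046023, minus strand) had 303, 352 and 304 in input and 302, 127 and 134 in IP. Mouse 1 had nearly the same level of Gstp2 in both fractions, and the change of -0.77 ± 0.33 (SE, adjusted p = 0.11) did not pass. In Tru4 it was -0.57 ± 0.39 (SE, adjusted p = 0.26), also not called, while Gstp2 was called lower in the other 5 protocols. Gstp3 was the least abundant of the 3 and was called lower in 2 of 7, SMTseq4 and SMTer.

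Mgst1 (ENSMUSG00000008540, chr6:138140316-138156755, plus strand), the abundant microsomal transferase and peroxidase of the endoplasmic reticulum, had 2402, 2459 and 2581 CPM in Tru70 input and 853, 519 and 637 CPM in IP. Its log2 change was -1.89 ± 0.22 (SE, adjusted p = 0.00022), and it was lower in all 7 protocols. Mgst3, chosen after its values were seen, changed by -1.71 ± 0.33 (SE, adjusted p = 0.0037) and was lower in 5 of the 6 count protocols.

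Mgst2 (ENSMUSG00000074604, chr3:51660360-51682677, plus strand) moved the other way and was the only member called higher in IP in 2 or more protocols on exon counts. In SMTseq4 it had 1, 1 and 5 counts in the input of mice 1, 2 and 3 and 65, 65 and 75 in IP. The ratio of the sums, scaled for depth, was 30.3 (exact 95% counting interval 14.5 to 76.4), and edgeR gave a log2 change of 4.91 ± 0.59 (SE, adjusted p = 5.9e-05). All IP libraries stood well above all input libraries.

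In Tru4, Mgst2 had 0, 5 and 0 counts in input and 32, 61 and 80 in IP, a ratio of 31.7 (13.3 to 98.8) and a log2 change of 4.99 ± 1.0 (SE, adjusted p = 0.0027). In SMTseq0.25 the sums were 4 and 156, a ratio of 45.4 (17.4 to 169), with 5.43 ± 1.5 (SE, adjusted p = 0.021). In Tru70 every input library had 0 counts of Mgst2 and the IP libraries had 0, 17 and 116, so that IP was at least 33.8-fold higher against 3 counts over the group, and low counts kept it out of the test there. Its counts were also 0 in the input of NEB and NuG, where the IP sums were 145, all from mouse 3, and 14. The intervals cover counting error only. The Kupffer, erythroid and lymphocyte markers rose in the same libraries (the 8 Kupffer markers summed to 372 to 437 CPM in SMTseq4 input and 8701 to 14667 CPM in IP), and their part in the rise of Mgst2 was not tested.

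Sult1a1 (ENSMUSG00000030711, chr7:126672865-126676432, minus strand), the phenol sulfotransferase, had the highest mean RPKM of the sulfotransferases in Tru70. In SMTseq4 input, Sult2a1 had more exon counts than Sult1a1 (means of 13677 and 12268). Sult1a1 had 439, 462 and 465 CPM in Tru70 input and 179.5, 130.0 and 159 CPM in IP, groups far apart, and its log2 change was -1.54 ± 0.19 (SE, adjusted p = 0.00027). Sult1a1 was lower in all 7 protocols, from -2.11 in SMTseq4 to -1.54 in Tru70. The other sulfotransferases named here were chosen after their values were seen. Sult1d1, an amine and phenol sulfotransferase, was lower in all 6 count protocols (-2.55 in Tru70), and Sult1b1, known for sulfating thyroid hormone, in 5 of 6 (-1.73).

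The Sult2a genes, which sulfate bile acids and steroids such as DHEA, are related neighbours on chromosome 7 that differ in how alike they are. A coding exon of 127 bases is shown for 4 of them, with capitals for the bases that differ from Sult2a1, because it holds both a pair that is hard to separate and one gene that is easy to tell apart.
Sult2a1 (chr7:13832577-13832703, minus strand): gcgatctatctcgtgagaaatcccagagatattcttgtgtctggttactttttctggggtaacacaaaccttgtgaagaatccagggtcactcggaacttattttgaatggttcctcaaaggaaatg
Sult2a2 (chr7:13738225-13738351, plus strand): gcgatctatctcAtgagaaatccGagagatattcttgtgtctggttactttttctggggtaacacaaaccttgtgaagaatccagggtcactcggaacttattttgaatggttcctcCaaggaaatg
Sult2a5 (chr7:13628715-13628841, plus strand): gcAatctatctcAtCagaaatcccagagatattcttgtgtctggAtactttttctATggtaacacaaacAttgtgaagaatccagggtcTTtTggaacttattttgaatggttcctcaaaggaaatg
Sult2a8 (chr7:14423437-14423563, minus strand): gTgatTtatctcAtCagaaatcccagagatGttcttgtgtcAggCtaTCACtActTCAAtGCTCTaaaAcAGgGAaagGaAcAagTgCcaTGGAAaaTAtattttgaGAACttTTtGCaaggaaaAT
Sult2a2 differed from Sult2a1 at 3 of 127 positions (97.6% identity) and Sult2a5 at 10, whereas Sult2a8 differed at 48 (62.2%). Reads that fitted several places were left out of the exon counts, so how reads divide between Sult2a1, Sult2a2 and Sult2a5 is uncertain and was not tested.

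Sult2a8 was lower in all 6 count protocols and changed by -2.27 ± 0.30 (SE, adjusted p = 0.00041) in Tru70, where it had 308, 244 and 169.8 CPM in input and 62.6, 53 and 34.3 CPM in IP. Sult2a1 had 86.7, 262 and 342 CPM in Tru70 input and 25.5, 31.2 and 64.8 CPM in IP. Mouse 1 was low in both fractions, and the change of Sult2a1 was -2.51 ± 0.52 (SE, adjusted p = 0.0051), lower in 5 of 6 protocols with the exception of NEB. Sult2b1, known as a cholesterol sulfotransferase, went the other way in some libraries only. It had 0 counts in SMTseq4 input and 11, 13 and 12 in IP, at least 12.4-fold higher and called there, and in Tru4 1 and 50 counts, a ratio of 45.8 (exact 95% counting interval 7.85 to 1845) that was not tested on exon counts. Gene-span reads called Sult2b1 higher in both protocols. In Tru70 it had 17, 0 and 6 counts in input and 0 in every IP library, so the direction of Sult2b1 did not hold across protocols. The exons of Sult2b1 overlap those of Lmtk3 and Gm31597 on the opposite strand over 8.13% of their length, and the study states that strand was not analysed, while the setting of the counter itself is not given in the sources used here.

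The Ugt2 genes are clustered on chromosome 5 and share long stretches of sequence. An exon of 88 bases is shown for 5 of them, with capitals for the bases that differ from Ugt2b1, because Ugt2b5, Ugt2b37 and Ugt2b38 are almost the same in it.
Ugt2b1 (chr5:86919605-86919692, minus strand): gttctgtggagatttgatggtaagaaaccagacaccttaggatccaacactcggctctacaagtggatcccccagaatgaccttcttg
Ugt2b36 (chr5:87081510-87081597, minus strand): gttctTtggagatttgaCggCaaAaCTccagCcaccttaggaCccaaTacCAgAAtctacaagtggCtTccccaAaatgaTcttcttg
Ugt2b5 (chr5:87128321-87128408, minus strand): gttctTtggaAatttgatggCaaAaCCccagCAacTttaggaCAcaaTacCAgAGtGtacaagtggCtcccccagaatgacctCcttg
Ugt2b37 (chr5:87242914-87243001, minus strand): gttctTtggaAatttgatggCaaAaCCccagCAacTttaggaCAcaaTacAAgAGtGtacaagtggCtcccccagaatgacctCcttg
Ugt2b38 (chr5:87412361-87412448, minus strand): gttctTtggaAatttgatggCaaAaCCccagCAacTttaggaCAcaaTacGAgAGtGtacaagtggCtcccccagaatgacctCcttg
Ugt2b5 was 98.9% identical to Ugt2b37 and to Ugt2b38 here, and 78.4% identical to Ugt2b1. In Tru70 input the reads on the gene span per exon count, which had a median of 2.01 over 8895 genes (both mates of a pair lie on the span), were 1.98 for Ugt2b1, 2.52 for Ugt2b5, 5.09 for Ugt2b37 and 105 for Ugt2b38. Ugt2b38 thus had few exon counts for the reads on its span, and 32.2% of its 60-base windows were shared, most with Ugt2b5.

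The Ugt2b enzymes glucuronidate steroids and bile acids among other compounds, and those below were chosen after their values were seen. Ugt2b1 (ENSMUSG00000035836, chr5:86916638-86926530, minus strand) had 354, 317 and 290.1 CPM in Tru70 input and 42.3, 33.3 and 44.6 CPM in IP, a log2 change of -3.0 ± 0.20 (SE, adjusted p = 1.4e-05). Ugt2b5 had 478, 344 and 308 CPM and 56.6, 64.9 and 47.4 CPM, a change of -2.74 ± 0.24 (SE, adjusted p = 4e-05). For both genes the groups did not overlap, and both fitted values lay below that of Gsta3, a difference that was not tested. Ugt2b36 had 465, 476 and 410.1 CPM in input and 102, 97.8 and 114 CPM in IP, a change of -2.11 ± 0.18 (SE, adjusted p = 3.7e-05). The smallest decrease of the family was that of Ugt2b35, -1.37 ± 0.23 (SE, adjusted p = 0.0017), from 268, 209.9 and 164 CPM to 87.7, 92.6 and 68.4 CPM. Of the 7 genes of the family tested in all 6 count protocols, Ugt2b35 was closest to 0 in each, and whether it differs from its neighbours was not tested.

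Other members also had few exon counts for the reads on their spans. Of 41 members with 20 or more exon counts in Tru70 input, 31 had between 1.5 and 3 gene-span reads per count, and 7 had more than 4. These were Ugt2b38, Sult2a6 (17.7), Sult2a4 (5.41), Ugt2b37, Ugt3a1 (4.93), Gstt3 (4.23) and Gstt2 (4.11), named for this ratio after it was seen. Gstt2 shared 0% of its windows, so shared sequence and a high ratio did not always go together. Gsta1 shared 88.2% of its windows, most with Gm3776, and had a ratio of 3.45, whereas Gsta2 shared 44.0% and had 2.08. Ugt2a1 and Ugt2a2 had under 20 counts in every library, and their exons overlap each other almost completely. Reads in introns also lie on the gene span.

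**Figure D3:**
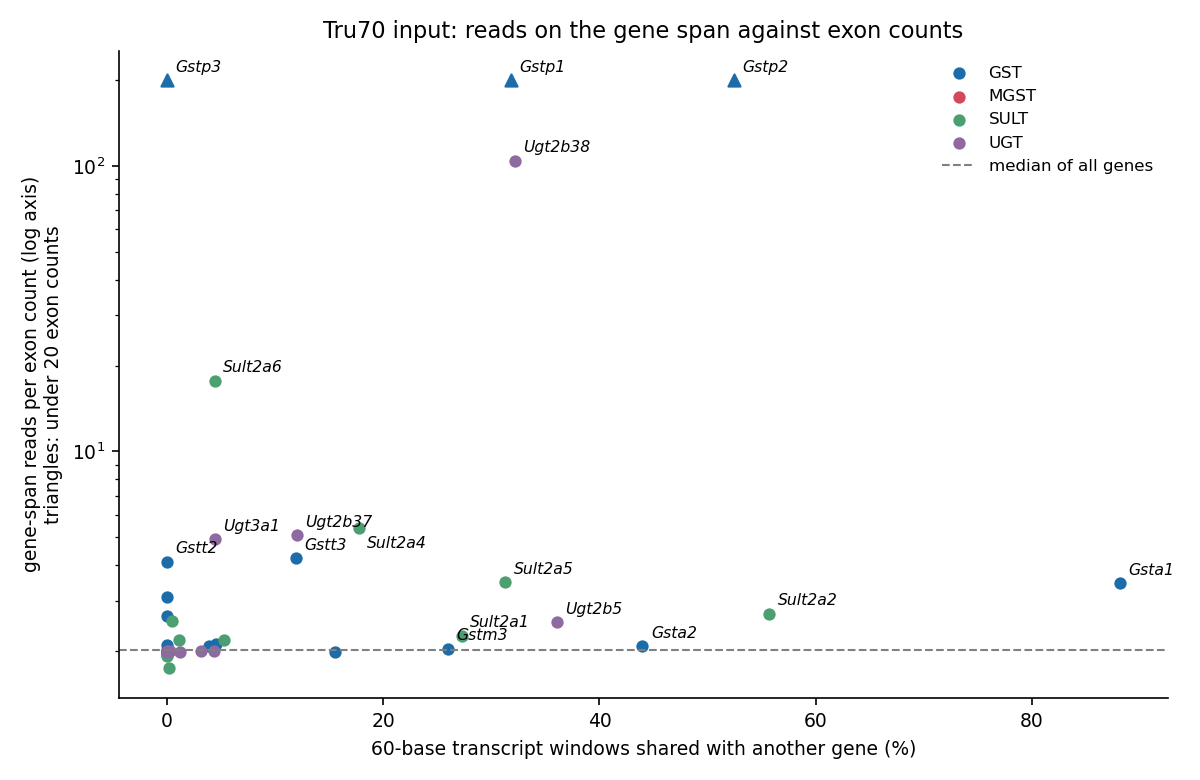
Gene-span reads per exon count in Tru70 input (log axis) against the share of 60-base transcript windows found in another gene, for members with at least 200 gene-span reads; colours are families, triangles at the top edge are members with under 20 exon counts, and the dashed line is the median of all genes, 2.01. Most members lie on the line, with Ugt2b38 at 105 and the 3 pi genes apart.

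Members with under 20 exon counts in each library were Gstp1, Gstp2, Gstp3, Gstt4, Sult1c1, Sult3a2, Sult6b2, Ugt2a1 and Ugt2a2. In all, 11 members were tested in no count protocol and 47 in at least 1, of which 41 were called lower in at least 1. The share of all genes called lower in at least 1 protocol was not computed. In SMTseq4 alone 28.7% of all genes were lower.

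Gene-span reads, an added measure, covered more members and gave the same direction. They were lower in 38 of 47 members tested and higher in 0 in Tru70 (all genes 16.6% lower and 17.5% higher), in 43 and 2 of 51 in Tru4 (21.2% and 25.3%), in 24 and 0 of 45 in NEB (5.25% and 5.22%), and in 39 and 0 of 44 in NuG (15.9% and 18.1%). SMTseq4 had 43 lower and 2 higher of 51 (25.6% and 30.1%), and SMTseq0.25 had 40 and 1 of 49 (16.4% and 18.7%). SMTer differed most between measures. There the deposited RPKM gave 13 lower and 0 higher of 24 members tested (limma, log2(RPKM + 1), adjusted p under 0.05, 6.99% of all genes lower and 13.2% higher), with a median of -1.26 on that scale, which understates the change of low genes. The gene-span reads gave 44 lower and 0 higher of 45 (24.4% of all genes lower and 22.9% higher), with a median of -2.26. By RPKM the SMTer count was 20 with the mouse as a block, and it was 0, 11 and 2 without mouse 1, 2 and 3. By gene-span reads it was 41, 40 and 40.

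**Figure D4:**
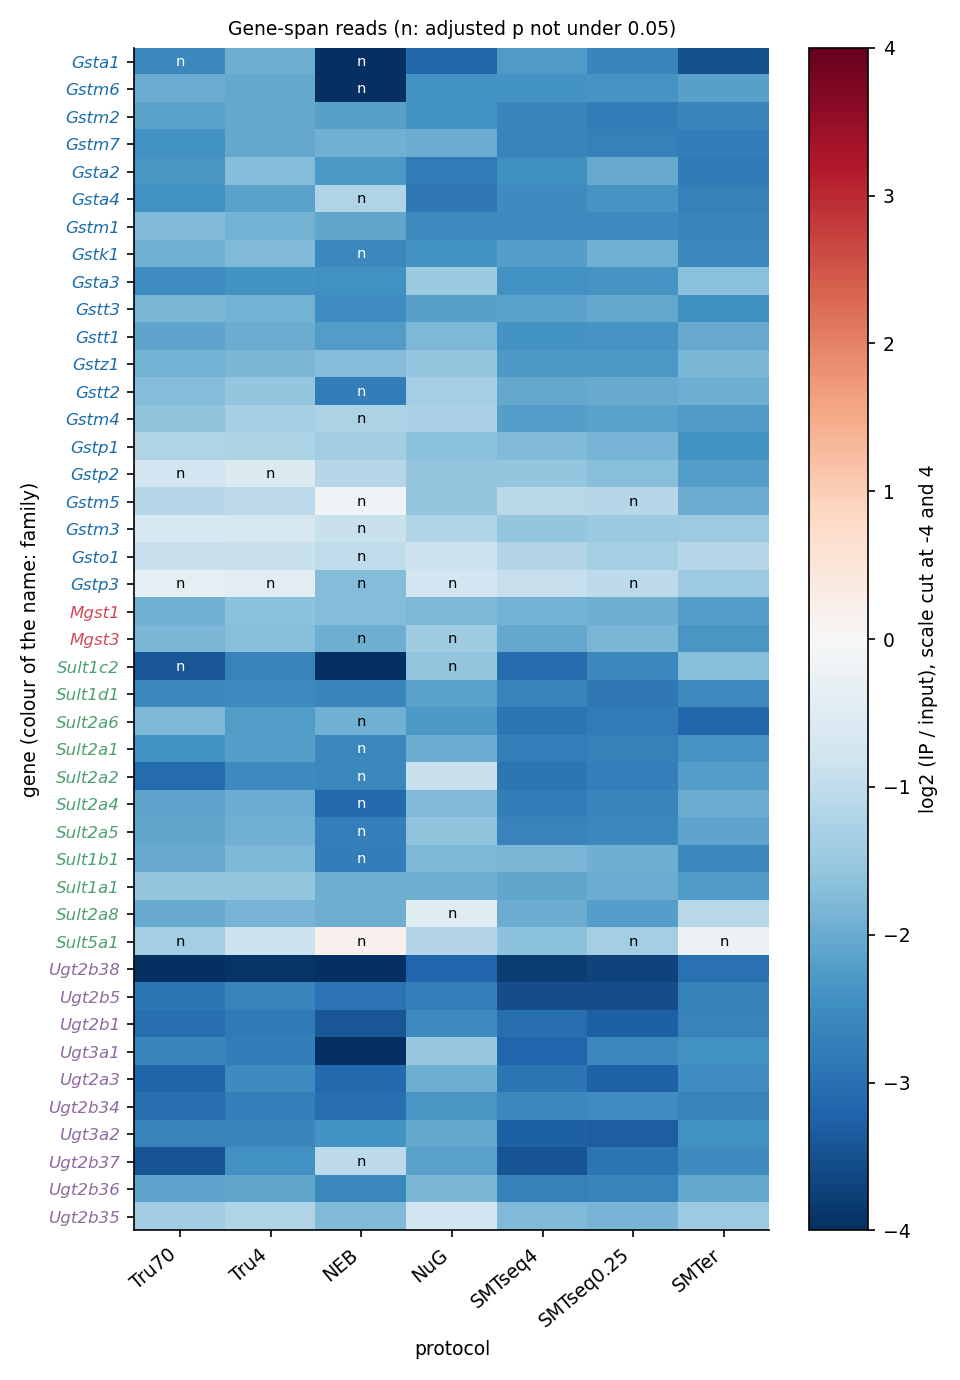
Log2(IP/input) from gene-span reads for the 43 members tested in all 7 protocols, genes in rows coloured by family and protocols in columns, with n where the adjusted p was not under 0.05. Of 301 cells, 300 are below 0 and 267 were called lower, while from 5.25% (NEB) to 25.6% (SMTseq4) of all genes were called lower per protocol. The colour scale stops at -4 and 4, and 6 cells lie beyond -4.

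The size of the change was compared between protocols in one edgeR fit of the 36 libraries of the 6 count protocols. No member of 47 differed between NuG and Tru70, between SMTseq4 and Tru70 or between Tru4 and Tru70 at adjusted p under 0.05. Of all 18582 genes, 0.07% were called lower and 0.0646% higher in NuG against Tru70, 0.0161% and 0.194% in SMTseq4, and 0% and 0% in Tru4. At an unadjusted p under 0.05 there were 3, 6 and 2 of the 47 members, against 1551, 1762 and 819 of the 18582 genes. The median difference of the members was 0.14, -0.24 and 0.04 in the 3 contrasts. For Gstm1 the difference was -0.77 ± 0.29 (SE, adjusted p = 0.39) in NuG and -0.67 ± 0.29 (SE, adjusted p = 0.42) in SMTseq4. A p above the threshold does not show that the changes were alike. With library totals alone, 15 of 47 members were called less lowered in NuG than in Tru70. Of all 18582 genes, 2378 were then called higher and 25 lower in that contrast, and their median difference was 1.17.

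The mice differed in some members in the same way in each of the 6 count protocols. Among 34 members with a mean of 20 or more input counts in each of the 6 count protocols, mouse 1 was the lowest of the 3 mice in all 6 protocols for 8 members, against 2.13% of 8636 genes. For 4 of these, chosen after their values were seen, the median difference to the other mice was at least 2-fold, against 0.672% of genes that were lowest or highest by that much: Sult2a1 (median log2 difference -2.01), Gsta2 (-1.55), Sult2a5 (-1.24) and Sult2a2 (-1.13). Sult2a1 and Sult2a2 were lowest in mouse 1 in all 6 protocols of IP as well (-1.74 and -1.62, against 2% of 10443 genes that were lowest or highest there by 2-fold or more). Sult2a5 was lowest in 5 of 6 (-1.06), mice 1 and 2 both having 0 counts in NEB IP. In SMTseq4, Sult2a1 had 189.7, 734 and 916 CPM in the input of mice 1, 2 and 3 and 36.1, 108 and 139 CPM in IP, so mouse 1 lay about as far below the other mice in both fractions.

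Mouse 3 had the highest input in all 6 protocols for 5 members, against 5.06% of genes: Gstm2 (0.78), Gstt3 (0.66), Gsta4 (0.65), Sult2a1 (0.98) and Sult2a5 (0.66). It had the lowest for 5, against 4.78% of genes: Ugt2b35 (-0.73), Sult2a8 (-0.69), Ugt2b34 (-0.55), Ugt2b5 (-0.54) and Sult5a1 (-0.77), the values being median log2 differences from the other mice. In Tru70 input, Sult2a8 had 308, 244 and 169.8 CPM, falling below the other mice in mouse 3. Mouse 1 had the highest input in all 6 protocols for 3 members, against 2.28% of genes. Mouse 2 had the highest for 5, against 1.92% of genes, and the lowest for 0, against 1.17%. Since the 6 protocols share 1 RNA sample per mouse and fraction, these counts describe 3 animals and no test was made.

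**Figure D5:**
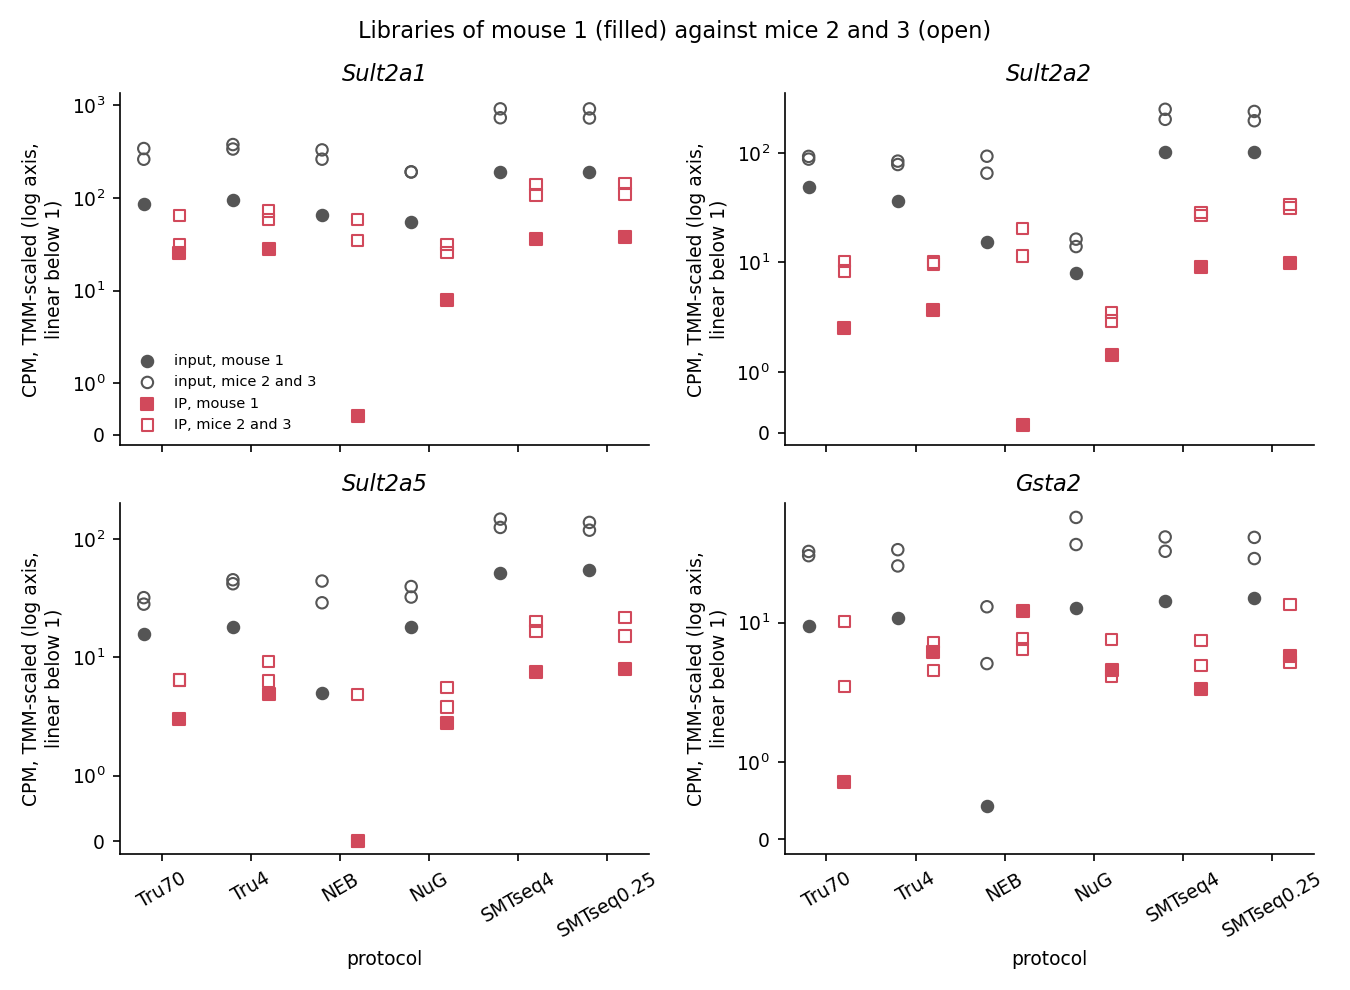
TMM-scaled CPM of Sult2a1, Sult2a2, Sult2a5 and Gsta2 in every library of the 6 count protocols (axis logarithmic above 1 and linear below); grey circles are input, red squares IP, filled for mouse 1 and open for mice 2 and 3. Mouse 1 is the lowest input library in each panel and protocol, and the lowest IP library for the 3 Sult2a genes, apart from Sult2a5 in NEB, where mice 1 and 2 are both at 0.

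Genes that supply or regulate these enzymes had a median closer to 0 than the members, a difference that was not tested. Of 48 other pathway genes, fixed as a list with earlier results known, 46 were tested in Tru70, of which 28 were lower and 0 higher (all genes 16.7% and 18.1%), with a median of -1.34. In SMTseq4, 31 of 46 were lower and 3 higher (28.7% and 30.4%). Gpx1, the glutathione peroxidase of the cytosol and the most abundant gene of the list, had a change of -0.00 ± 0.26 (SE, adjusted p = 1) in Tru70 and was called in NuG alone (-0.80). Prdx6, a peroxiredoxin that uses glutathione, fell by 1.54 ± 0.21 (SE, adjusted p = 0.00046) on the log2 scale, and Cebpa, a hepatocyte transcription factor, had -0.83 ± 0.22 (SE, adjusted p = 0.016).

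In the sulfate branch, 4 of 8 genes were lower in Tru70 (all genes 16.7%). Slc26a1, a sulfate transporter, changed by -3.42 ± 0.43 (SE, adjusted p = 0.00032) and Suox, the sulfite oxidase that makes sulfate, by -1.46 ± 0.30 (SE, adjusted p = 0.0051), both lower than in input. Slc35b2, which carries PAPS into the Golgi for other sulfotransferases, had 0.14 ± 0.20 (SE, adjusted p = 0.65) and was called lower in SMTseq4 only (-0.64). In the glutathione group 13 of 20 genes tested were lower in Tru70 (all genes 16.7%), in the UDP-glucuronate group 2 of 4, among exporters 3 of 4 and among regulators 6 of 10. The genes higher in SMTseq4, named after their values were seen, were the cystine carrier Slc7a11 (3.28), the lysosomal glucuronidase Gusb (0.63) and Nfe2l2 (0.52), the factor that switches on many glutathione transferase genes. Nfe2l2 was also higher in Tru4, NuG and SMTseq0.25, and had 0.46 ± 0.22 (SE, adjusted p = 0.14) in Tru70.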

How the data were processed

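RNA from the liver homogenate (input) and from anti-HA immunoprecipitation (IP) of 3 mice was sequenced after 7 library protocols, giving 42 libraries. Per the labels and the study's methods, the authors used Trimmomatic to take off adapters and FASTX to cut reads to 60 bases, then mapped the reads to GRCm38 with TopHat and counted them over Ensembl exons with HTSeq. The authors deposited whole-number counts per gene and, in separate files, RPKM. Multiplied by gene span and mapped reads, the RPKM gave whole reads (within 0.02) for 92.8% of 297647 values between 0.5 and 50 reads, so the deposited RPKM are per kilobase of the whole gene span, introns included. These gene-span reads were halved to pairs for an added fit, chosen after seeing the data. The study states that strand was not analysed, and the counter's own setting is not given in the sources used here. In the comparison of mice, a tie counted for no mouse. Summary lines of the counting (no feature, ambiguous, not unique) were left out of library sizes. Of the gene IDs, 47310 matched GENCODE M21 and 419 did not.

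Counts were tested per protocol with edgeR 4.0.16 (TMM, filterByExpr, quasi-likelihood test, fraction as the only term) in R 4.3.3, with Benjamini-Hochberg adjustment over all genes tested and calls at an adjusted p under 0.05. SMTer was tested with limma 3.58.1 on log2(RPKM + 1) for genes that reached an RPKM of 1 in 3 or more of the 6 libraries. CPM are scaled by TMM. Differences between protocols were tested as an interaction over 36 libraries. The edgeR fit (as in Tru70 and NuG), the limma fit (as in SMTer) and the interaction of NuG against Tru70 were tried on simulated data. Replicate numbers were taken to name mice, so that input and IP of a number pair by animal. The correlation of same-numbered deviations from the group means was 0.21 to 0.29 in SMTseq4, 0.13 to 0.20 in Tru4 and -0.04 to 0.15 in the other 4 count protocols. In NEB the same-numbered values were -0.03, 0.02 and -0.04. There, input 1 with IP 3 had 0.05 and input 3 with IP 1 had 0.04. Alternatives were DESeq2 1.42.0, library totals, no filter, the mouse as a block, RPKM with limma, other pseudocounts, each replicate left out, and fractions as labelled.

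Values per library are given for the 10 members with the highest mean RPKM in Tru70, for members called higher in IP in at least 2 protocols and for members with a called interaction in at least 2 contrasts (none), and of the other pathway genes for the 6 with the highest RPKM. The members and the lists were chosen with earlier results of these data known. Intervals on counts are exact and cover counting error only. The 3 mice are the only animals, and 1 RNA sample per mouse and fraction fed all protocols.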

Additional observations from a re-analysis of the deposited data

How the results depend on the processing

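Changed settings moved counts of called members mainly in NEB, NuG and SMTer. With the fractions of replicate 3 as labelled, the count was 0 in NEB, NuG, Tru4 and SMTer, on exon counts, RPKM and gene-span reads alike. By limma on log2(RPKM + 1) it was 26 in Tru4 (40 by edgeR) and 18 in NuG (35). Of all genes, that fit called 1644 of 8092 lower in Tru4 and 461 of 7436 in NuG. With library totals alone NuG gave 18, Gstm3 and Gstm4 in NuG reversed to 0.39 and 0.34, and 15 of 47 members differed between NuG and Tru70. Of all 18582 genes, 2378 were higher and 25 lower in that contrast. The cause was not tested beyond the shift of all genes given above. In SMTer, against 13 by RPKM, edgeR on exon counts gave 5 of 12 tested, gene-span reads 44, no filter on low values 0 and the replicate block 20. All genes lower were 390 of 5580 by RPKM, then 554 of 4255, 4285 of 17555, 23 of 32603 and 1204 of 5580 in the same order. Neither the replicate block elsewhere nor DESeq2 moved a count by over 1.5 times.

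Leaving out each replicate gave 24 to 37 in Tru70, 37 to 42 in Tru4, 5 to 13 in NEB, 30 to 36 in NuG, 41 to 43 in SMTseq4, 31 to 33 in SMTseq0.25 and 0 to 11 in SMTer. On gene-span reads the ranges were 30 to 40, 37 to 45, 10 to 18, 32 to 37, 44 to 48, 36 to 41 and 40 to 41, in the same order. Calls among all genes moved as well. In Tru70 on exon counts, 2066 of 15163 genes were lower without replicate 1, where 37 members were, and 1316 of 14878 without replicate 3, where 24 members were. The 3 contrasts between protocols stayed at 0 members with each replicate left out on exon counts. Among the single genes named, calls were lost in 29 cases with fractions as labelled, in 29 on gene-span reads as labelled, in 8, 7 and 14 without replicates 1, 2 and 3, and in 6 with no filter on low values. Further calls were lost in 6 cases with library totals, 5 with limma on log2(RPKM + 1) and 3 with edgeR on exon counts in SMTer. On gene-span reads 2, 6 and 7 were lost without replicates 1, 2 and 3. The only called values that changed sign were those of Gstm3 and Gstm4 in NuG with library totals. SMTer had the lowest exon count totals, and NEB had the fewest calls of the 6 count protocols among all genes; the part of depth was not tested.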

Other observations

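Markers of other cell types not described above moved with the fractions in Tru70 as follows (all genes 16.7% lower and 18.1% higher). Of the neutrophil markers 3 of 6 tested were higher in IP and 0 lower, with a median log2 change of 4.84. Of the stellate cell markers 5 of 6 were lower (median -1.63), and of the cholangiocyte markers 2 of 5 (median -2.44).

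The animals differed in sex-linked transcripts. Xist, the non-coding RNA of the inactive X chromosome, had 0, 1 and 3824 counts in the Tru70 input of mice 1, 2 and 3, and the Y-linked Ddx3y had 1136, 1536 and 11. Mouse 3 therefore stood apart from mice 1 and 2 in these transcripts. Mouse 3 also had the highest input levels of Gstm2, Gsta4, Gstt3, Sult2a1 and Sult2a5. Its input levels of Sult2a8, Sult5a1, Ugt2b34, Ugt2b35 and Ugt2b5 were the lowest. Mice 1 and 2 were not alike in all of these genes. For Sult2a1, Sult2a5 and Gsta4, mouse 1 lay further from the other mice (median log2 difference -2.01, -1.24 and -0.99). Mouse 3 had 0.98, 0.66 and 0.65 for the same genes. With 1 mouse on one side, animal and sex-linked transcripts cannot be told apart.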
